A study of Mus musculus with 16 samples.

Results

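Osteocytes are the former osteoblasts that lie buried in bone matrix, and they control how that matrix mineralizes and how much phosphate circulates. The 7 genes described here belong to this work: Dmp1 and Mepe encode secreted matrix phosphoproteins, Fam20c encodes the kinase that phosphorylates secreted proteins of this kind, Phex encodes a membrane endopeptidase, Fgf23 encodes a phosphate-lowering hormone, and Pdpn and Cd44 encode a pair of interacting membrane glycoproteins. The genes were chosen by symbol from the gene tables of 16 mice, in which each symbol occurred once. They are 7 of 36829 listed features, and all 7 had a mean of at least 0.5 RPKM (reads on a transcript, scaled to transcript length and library size), the minimum that 16973 features passed.

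FGF23 travels from bone to the kidney, where it acts through an FGF receptor and its co-receptor Klotho to lower phosphate reabsorption and the synthesis of active vitamin D. Loss of PHEX, DMP1 or FAM20C function raises FGF23 and causes hypophosphatemia, so the products of these genes lie upstream of the hormone. MEPE carries an acidic peptide motif that restrains mineral growth when it is released, and PHEX can bind and cleave this peptide. Podoplanin, also called E11, marks osteoblasts that are turning into osteocytes and is needed for their dendrites, while CD44 binds hyaluronan and osteopontin and is carried by many blood cells as well as by bone cells.

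Transcripts were measured by RNAseq in cortical bone of female C57Bl/6 mice (C57Bl/6J in the study's methods) aged 11 weeks. In the hindlimb unloaded (HLU) group, 8 mice were held by a tail harness for 7 days so that their hind limbs bore no weight, and the control group consisted of 8 mice with normal weightbearing. No genotype other than the strain is given for either group. Bone ends were cut off and marrow was flushed out before the shaft was frozen, so RNA of osteocytes, osteoblasts, osteoclasts and remaining marrow was measured together, and fewer cells of a type and less RNA per cell cannot be told apart. Whether the control mice wore a harness is not given in the sources used here.

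Library sizes, read back from the steps of the RPKM values, lay between 7067512 and 19708590 reads for controls and between 7838277 and 21363584 reads for the HLU group. A transcript of 1 kb with 3 reads would have had between 0.140 and 0.424 RPKM. Marrow transcripts remained abundant: 7 granulocyte genes summed to 17544 to 37581 RPKM per control mouse and to 12346 to 44250 RPKM per HLU mouse, and 10 erythroid genes summed to 2971 to 8633 RPKM and 1641 to 4431 RPKM. None of 6 skeletal muscle genes is listed in the files. Osteocyte identity was well represented, since Sost, the osteocyte inhibitor of Wnt signaling, averaged 68.9 ± 39.8 RPKM in controls and 93.4 ± 28.0 RPKM after HLU. Here and throughout, ± gives the SD over the 8 mice of a group (n = 8). The median log2 change over all features tested was -0.10, and rescaling by median-of-ratios size factors moved it to -0.01.

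The bases just upstream of the transcription start are shown for Dmp1, Pdpn and Phex, which varied together between mice, for Fgf23, which holds the same hexamer, and for Mepe, the member called between groups. Each line gives the 100 bases before the RefSeq start on GRCm38.p6, read 5′ to 3′ on the strand of the gene. Capitals mark TTTAAA, or TGTGGT in Mepe.

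Dmp1, chr5:104202517-104202616, plus strand: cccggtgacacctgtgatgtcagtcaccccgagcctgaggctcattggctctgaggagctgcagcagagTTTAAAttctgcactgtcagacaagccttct
Pdpn, chr4:143299565-143299664, minus strand: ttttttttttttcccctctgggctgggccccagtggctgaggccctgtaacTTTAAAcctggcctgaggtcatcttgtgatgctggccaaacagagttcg
Phex, chrX:157415287-157415386, minus strand: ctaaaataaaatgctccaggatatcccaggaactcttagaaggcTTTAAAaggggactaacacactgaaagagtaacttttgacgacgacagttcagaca
Fgf23, chr6:127072802-127072901, plus strand: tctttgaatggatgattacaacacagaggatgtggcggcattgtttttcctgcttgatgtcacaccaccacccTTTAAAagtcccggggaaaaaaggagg
Mepe, chr5:104325229-104325328, plus strand: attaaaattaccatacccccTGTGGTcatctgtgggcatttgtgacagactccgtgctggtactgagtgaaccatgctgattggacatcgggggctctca

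Counted from the RefSeq start, TTTAAA began at position -31 in Dmp1, at -27 in Fgf23, at -49 in Pdpn and at -56 in Phex. These were 4 of the 7 members, and 4.39% of 32851 RefSeq promoters held TTTAAA in the same 100 bases. TGTGGT, the core that RUNX factors recognize, began at position -80 in Mepe, 1 of 7 members, and 5.61% of promoters held it on either strand in this stretch. TATAAA and CACGTG, searched on both strands, occurred in none of the 7 stretches and in 5.56% and 3.17% of all promoters. The motifs were picked after the sequences had been seen, and a match describes the letters only.

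Mepe was the one member that passed the test after hindlimb unloading, and it was higher in the unloaded bone. Dmp1, which also lies on chromosome 5, had nearly the same abundance in both groups. The RPKM of Mepe divided by that of Dmp1 was accordingly larger in most HLU mice. Of the 7 members, 1 passed an unadjusted p under 0.05 with a change of at least 1.2-fold, a rule that 5.87% of the 16973 features passed, 1.11% of them higher and 4.76% lower in HLU mice. At an adjusted p under 0.1 no member was called, and 0% of all features were.

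Mepe (matrix extracellular phosphoglycoprotein, GRCm38 chromosome 5, 104325329 to 104338611, plus strand) spanned 58.7 to 262 RPKM among controls (median 127) and 116 to 323 RPKM among HLU mice (median 255). The groups overlapped, but 7 of 8 HLU mice were above the control median and 3 were above every control mouse. Mean abundance was 140 ± 75.1 RPKM without and 226 ± 78.5 RPKM with unloading. On the log2(RPKM + 0.1) scale the difference was 0.79 with a standard error of 0.32, which is 1.73-fold with a 95% interval from 1.07 to 2.79 (limma p = 0.0247, adjusted p = 0.744 over all features, exact permutation p = 0.0392 over every split of the mice into 8 and 8). After median-of-ratios rescaling the difference was 0.88 and was again called. It was 0.66 without Control 1 and 0.64 without Control 6, the control mouse with the least Mepe, and it was not called in either case. Between 1026 and 9905 reads per library lay behind these values.

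Dmp1 (dentin matrix protein 1, chromosome 5, 104202613 to 104214102, plus strand) spanned 50.8 to 181 RPKM among controls (median 116) and 63.2 to 166 RPKM among HLU mice (median 115). The range of the HLU mice lay inside that of the control mice. Its means were 112 ± 44.2 and 117 ± 33.2 RPKM. The log2 difference of 0.11 had a standard error of 0.26 and a 95% interval from -0.44 to 0.66 (limma p = 0.677, adjusted p = 0.918, exact permutation p = 0.695). The SD of the log2 values was 0.63 among controls and 0.45 among HLU mice. Control 1 and Control 2 had the lowest Dmp1 of the control group, 61.3 and 50.8 RPKM, and HLU 2 the lowest of the HLU group.

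Within each control mouse Mepe was between 0.64 and 1.70 times as abundant as Dmp1 per kilobase. Among HLU mice the ratio ran from 1.00 to 2.83, and all but HLU 4 and HLU 5, 6 of 8, were above every control mouse. A ratio of 2 genes of 1 library does not depend on how the library was scaled. The log2 ratio of Mepe to Dmp1 had a mean of 0.24 ± 0.47 for controls and 0.92 ± 0.46 for HLU mice, a difference of 0.68 (exact permutation p = 0.0123). After adjustment over the 21 ratios that can be formed from the 7 members the p was 0.258, and none of the 21 had an adjusted p under 0.05 by the exact permutation test, while 1 had an unadjusted p under 0.05.

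**Figure D1:**
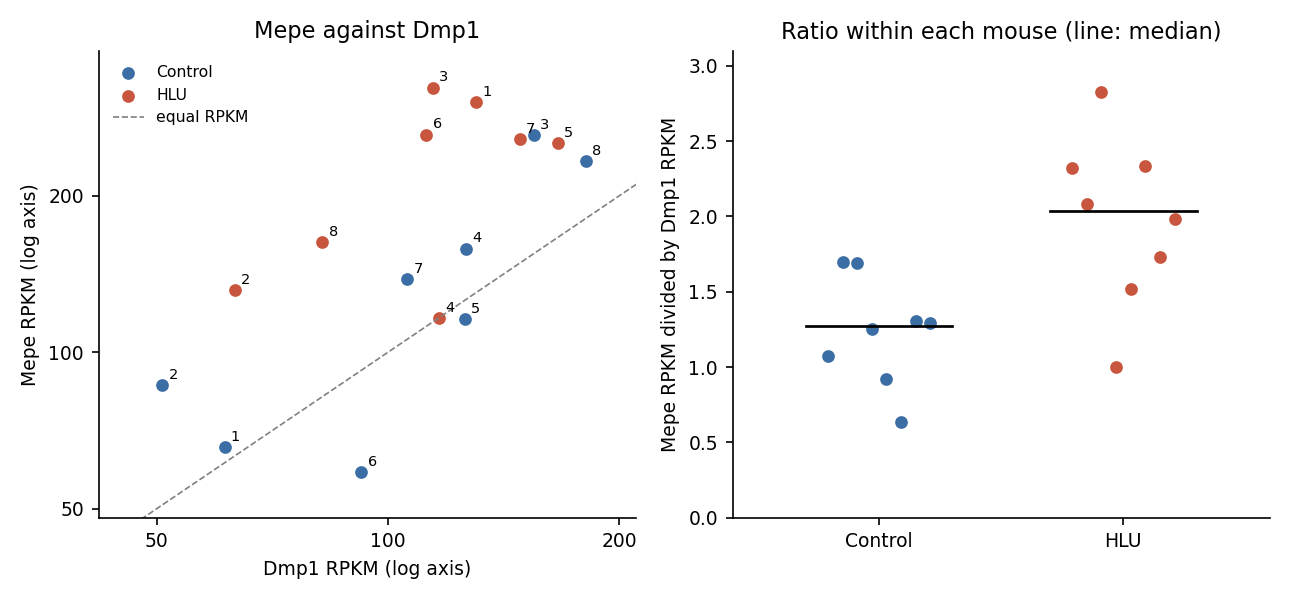
Left, RPKM of Mepe against RPKM of Dmp1 in 16 mice on log axes, with each mouse numbered by replicate and a dashed line of equal RPKM. Right, RPKM of Mepe divided by RPKM of Dmp1 in each mouse, with the median of each group as a line, where 6 of the 8 HLU mice lie above the highest control value of 1.70.

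The other secreted phosphoproteins that lie beside Dmp1 and Mepe in the genome gave no call. Spp1, which encodes osteopontin, had 419 ± 132 RPKM in controls and 591 ± 238 RPKM after HLU (limma log2 difference 0.46, exact permutation p = 0.105). Ibsp, which encodes bone sialoprotein, had 523 ± 190 and 588 ± 141 RPKM (limma log2 difference 0.21, exact permutation p = 0.328). Both were more abundant per kilobase than Mepe or Dmp1. Dspp, the dentin member of the family, was close to 0 in every mouse, with at most 0.012 RPKM. Of the 4 family members tested, Mepe alone was called, beside 5.87% of all features. Their median log2 difference was 0.34 against -0.10 over all features. The study also assayed Mepe and Spp1 by NanoString, which counts barcoded probes of selected transcripts. There it listed Spp1 as higher after HLU and did not list Mepe among the differentially expressed genes.

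The genes of the kinase and the endopeptidase did not pass the test. Both had slightly higher means in HLU mice, and both varied more than 3-fold between mice of 1 group.

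Fam20c (chromosome 5, 138754514 to 138810077, plus strand) spanned 1.76 to 5.95 RPKM among controls (median 3.25) and 2.06 to 7.17 RPKM among HLU mice (median 4.66). HLU 1, HLU 5 and HLU 7 were above every control mouse, and the groups otherwise overlapped. The means were 3.40 ± 1.56 and 4.59 ± 2.09 RPKM. Their log2 difference was 0.40 with a standard error of 0.32 and a 95% interval from -0.28 to 1.09 (limma p = 0.221, adjusted p = 0.764, exact permutation p = 0.251). The gene was called when erythroid and granulocyte scores, the mean log2 levels of marker genes in each mouse, were added to the fit (limma log2 difference 0.69), but 19.6% of all features were called in that fit.

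Phex (chromosome X, 157162075 to 157415312, minus strand) spanned 7.75 to 38.6 RPKM among controls (median 16.3) and 13.1 to 40.2 RPKM among HLU mice (median 18.9). The groups overlapped almost completely, with 1 HLU mouse, HLU 5, above every control mouse. It averaged 19.3 ± 10.3 and 21.7 ± 9.13 RPKM. The log2 difference of 0.25 had a standard error of 0.31 and a 95% interval from -0.41 to 0.91 (limma p = 0.429, adjusted p = 0.836, exact permutation p = 0.463). Its direction was not stable, because the difference was -0.019 with the erythroid and granulocyte scores in the fit and -0.051 without the smallest library of each group, Control 2 and HLU 5.

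Fgf23, the hormone gene, was the least abundant member and the most variable. Its median was higher in HLU mice, but a single control mouse had the highest value of all 16, and the gene was not called.

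Fgf23 (fibroblast growth factor 23, chromosome 6, 127072902 to 127081408, plus strand) spanned 0.196 to 4.50 RPKM among controls (median 0.703) and 0.470 to 2.52 RPKM among HLU mice (median 1.76). The 7 control mice apart from Control 6 lay between 0.196 and 1.10 RPKM, while HLU 4, 5, 6, 7 and 8 lay between 1.56 and 2.52 RPKM and HLU 1, 2 and 3 between 0.470 and 0.625 RPKM. The values thus overlapped across groups, and within HLU they formed a low and a high set. Means were 1.13 ± 1.40 and 1.48 ± 0.798 RPKM, and the log2 difference of 0.69 had a standard error of 0.50 and a 95% interval from -0.37 to 1.75 (limma p = 0.182, adjusted p = 0.760, exact permutation p = 0.212). Without Control 6 the control mean was 0.645 ± 0.351 RPKM (SD, n = 7), 5 of 8 HLU mice were above every remaining control mouse, and the log2 difference was 1.04 (limma p = 0.0221, exact permutation p = 0.0326 over 6435 splits). Leaving out this mouse was a choice made after its value had been seen. The values rest on 4 to 131 reads per library, so counting error is larger here than for any other member.

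The membrane glycoproteins were not called either. Pdpn was somewhat higher and Cd44 somewhat lower in the mean of the HLU mice, both by less than the spread between mice.

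Pdpn (podoplanin, chromosome 4, 143267431 to 143299564, minus strand) spanned 3.36 to 8.82 RPKM among controls (median 6.34) and 4.54 to 10.7 RPKM among HLU mice (median 8.15). HLU 4, HLU 5 and HLU 7 were above every control mouse. In the control group the mice fell apart into Control 1, 2 and 7, between 3.36 and 3.58 RPKM, and the others, between 5.57 and 8.82 RPKM. Mean Pdpn was 6.11 ± 2.41 and 7.72 ± 2.11 RPKM, a log2 difference of 0.39 with a standard error of 0.25 and a 95% interval from -0.14 to 0.92 (limma p = 0.135, adjusted p = 0.748, exact permutation p = 0.159).

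Cd44 (chromosome 2, 102811141 to 102901665, minus strand) was the steadiest member, from 19.1 to 35.5 RPKM among controls (median 26.9) and from 17.1 to 31.5 RPKM among HLU mice (median 26.7). HLU 1 and HLU 7 were below every control mouse, and the other 6 overlapped with them. The log2 difference between 26.6 ± 5.44 and 24.8 ± 5.41 RPKM was -0.10, with a standard error of 0.16 and a 95% interval from -0.44 to 0.23 (limma p = 0.517, adjusted p = 0.869, exact permutation p = 0.515). This was also the median of all features, and the difference was 0.036 after quantile normalization.

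**Figure D2:**
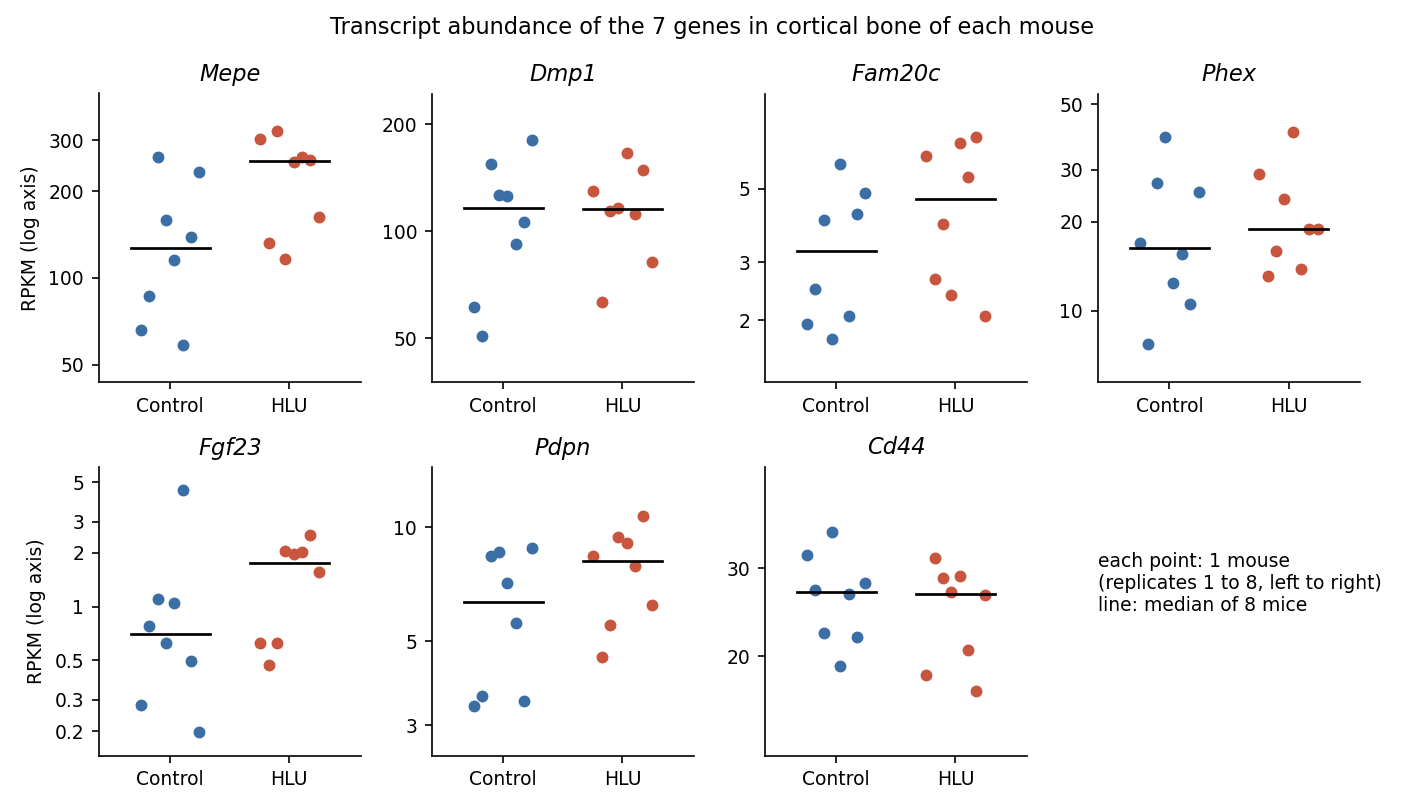
RPKM of each of the 7 genes on a log axis, 1 point per mouse with replicates 1 to 8 from left to right, and a line at the median of 8 mice. The groups overlap for every gene, Mepe has the clearest shift, with 3 HLU mice above all control mice, and Control 6 stands apart for Fgf23 at 4.50 RPKM.

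In all, 6 of the 7 members had a higher mean log2 value in HLU mice, compared with 32.1% of all features at any p, and the median of the 7 differences was 0.39 against -0.10 over all features. The share over all features depended on the scaling, with 47.5% after median-of-ratios rescaling (6 of 7 members) and 50.3% after quantile normalization (7 of 7 members). The number of members fell to 5 without Control 2, where Dmp1 was -0.038, to 5 with the erythroid and granulocyte scores in the fit and to 4 without Control 2 and HLU 5. The members are not independent of each other, as the next comparison shows.

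**Figure D3:**
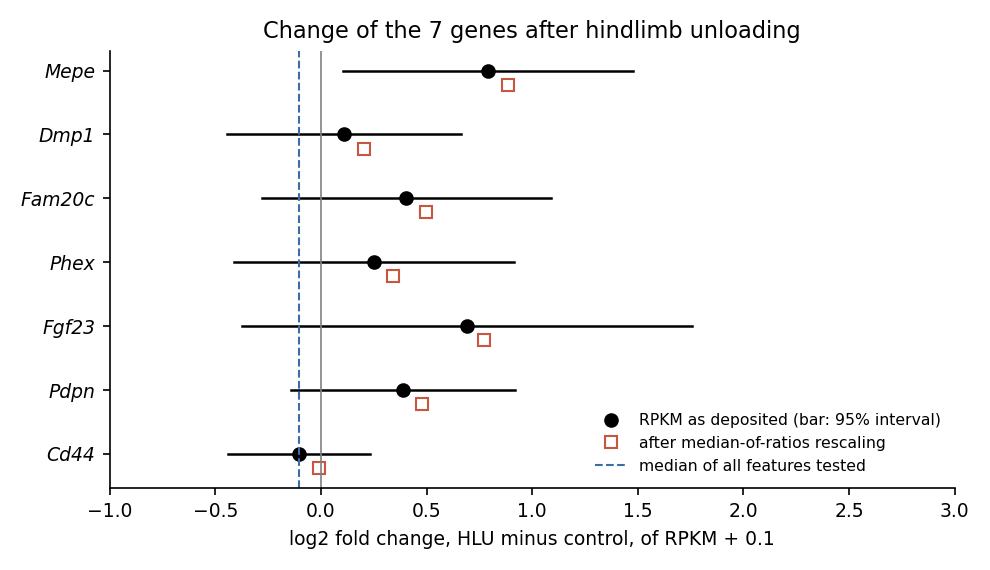
Log2 fold change of each gene, HLU minus control, on RPKM + 0.1, as filled points with 95% intervals, and after median-of-ratios rescaling as open squares. The dashed line is the median of all 16973 features at -0.10, and the interval of Mepe alone, from 0.10 to 1.48, lies above 0.

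Because RPKM is a level per length, the members can also be ordered by abundance. The order was Mepe, Dmp1, Cd44, Phex, Pdpn, Fam20c and Fgf23 in both groups. Neighbors in it were compared in each group by an exact sign-flip permutation test over 8 mice, whose smallest possible p is 0.0078. Mepe was above Dmp1 in 6 of 8 control mice (ratio 1.18, exact p = 0.188) and in 7 of 8 HLU mice (ratio 1.89, exact p = 0.0156). Cd44 was above Phex in 5 of 8 HLU mice (exact p = 0.297) and in 6 of 8 control mice (ratio 1.53, exact p = 0.0469). These p-values were not adjusted, and a p on either side of 0.05 does not show that the groups differ. Compared between groups, the ratio of Mepe to Dmp1 had an exact permutation p of 0.0123 (adjusted p = 0.258). That of Phex to Cd44 had 0.306 (adjusted p = 0.584). The other neighbors in the order had ratios between 1.78 and 4.60 and an exact p of at most 0.0234. The level of Cd44 depends on the gene length used, as the values imply 12673 bases, whereas the exons of GENCODE M21 add up to 6776.

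The abundance of several members varied together from mouse to mouse once the mean of each group had been removed. Differences between mice in the response to unloading remain in these values. Dmp1 was at the center of this pattern: mice rich in Dmp1 were also rich in Pdpn, Mepe, Phex and Fam20c. Cd44 ran opposite to Fam20c, and Fgf23 followed none of the others. The correlations were computed over 16 mice on log2(RPKM + 0.1) after the mean of each group had been subtracted, with 100000 permutations within groups and adjustment over 21 pairs. By Pearson's r 7 pairs had an adjusted p under 0.05, and by Spearman's rho 5 of these did. The number by Pearson's r was 1 without Control 3 or without HLU 2, 2 without Control 8 and 3 without Control 6. With each mouse left out in turn, Dmp1 with Pdpn passed in 16 of 16 cases, Fam20c with Cd44 in 14, Dmp1 with Mepe in 13, Phex with Pdpn in 11, Dmp1 with Phex in 10, Dmp1 with Fam20c in 8 and Mepe with Fam20c in 5.

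Dmp1 and Pdpn had the closest relation, with r = 0.85 (permutation p = 0.0001, adjusted p = 0.0021) and rho = 0.87 (permutation p = 0.00012, adjusted p = 0.00252). It held in each group, with r = 0.85 among control mice (exact p = 0.00734) and 0.84 among HLU mice (exact p = 0.00918), and without Control 1 and Control 2, the mice farthest from the median of Dmp1, r was 0.77. Among all 16973 features 0.589% were at least as close to Dmp1 as Pdpn was, and the share was larger for the other positive pairs that passed: 1.81% for Phex with Pdpn, 3.22% for Dmp1 with Mepe, 3.99% for Mepe with Fam20c, 6.83% for Dmp1 with Phex and 7.71% for Dmp1 with Fam20c. For Fam20c with Cd44, the negative pair that passed, 92.0% of features had an r with Fam20c at or above that of Cd44. The rest had a more negative r with Fam20c than Cd44 had. Many features outside the 7 genes therefore varied with a member as closely as another member did. The levels of a gene needed for dendrites and of a gene for a matrix phosphoprotein therefore ran in parallel across these bones.

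Phex took part in the same pattern. Its r was 0.71 with Pdpn (permutation p = 0.00619, adjusted p = 0.031, rho = 0.69 with adjusted p = 0.0397) and 0.66 with Dmp1 (permutation p = 0.00997, adjusted p = 0.031, rho = 0.72 with adjusted p = 0.0397). With the 2 mice most distant in Phex or Dmp1 removed, these were 0.66 and 0.61. Within groups r lay between 0.60 and 0.76 for both pairs.

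Mepe was related to Dmp1 with r = 0.74 (permutation p = 0.00295, adjusted p = 0.031) and rho = 0.71 (adjusted p = 0.0397). The relation was 0.81 among control mice (exact p = 0.0163) and 0.60 among HLU mice (exact p = 0.112), and 0.70 without Control 1 and Control 2. The values of Mepe with Phex (r = 0.42, permutation p = 0.143) and with Pdpn (r = 0.52, permutation p = 0.0627) did not pass.

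Fam20c was related to both phosphoproteins by Pearson's r but not by rank. Its r was 0.65 with Dmp1 (permutation p = 0.00863, adjusted p = 0.031, rho = 0.56 with adjusted p = 0.108) and 0.64 with Mepe (permutation p = 0.0103, adjusted p = 0.031, rho = 0.43 with adjusted p = 0.276). After removal of the 2 mice most distant in Dmp1 or Mepe these were 0.67 and 0.56. Fam20c and Phex, both enzymes acting on the secreted proteins, gave an r near 0 (r = 0.07, permutation p = 0.799). Cd44 was lower where Fam20c was higher, with r = -0.71 (permutation p = 0.00487, adjusted p = 0.031) and rho = -0.66 (adjusted p = 0.0397), and r was -0.62 without Control 1 and Control 4.

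Fgf23 had r between -0.29 and 0.31 with the other 6 members, and the smallest permutation p was 0.284. Without Control 6 and Control 8, the mice farthest from its median, r with Pdpn was 0.67, and among HLU mice alone it was 0.76 (exact p = 0.0275), which was 1 of 6 relations of Fgf23 examined in that group.

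**Figure D4:**
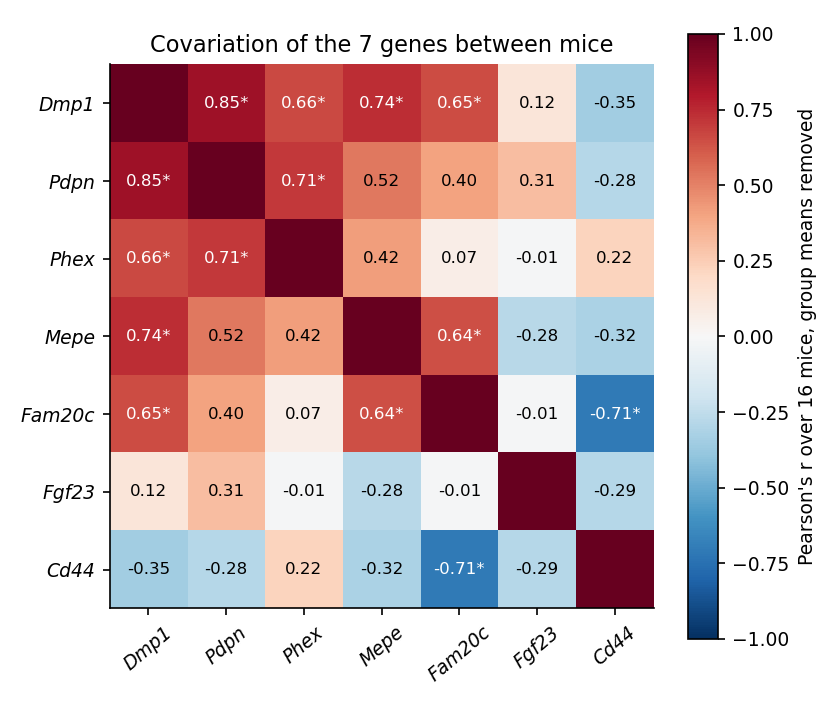
Pearson's r between the 7 genes over 16 mice on log2(RPKM + 0.1), with group means removed, where an asterisk marks an adjusted permutation p under 0.05 over 21 pairs. Dmp1 has marked positive values with Pdpn, Phex, Mepe and Fam20c, up to 0.85. Phex with Pdpn and Mepe with Fam20c are marked too. The other pairs of these genes are not marked, down to 0.07 for Phex with Fam20c. Fgf23 is pale against all others, and Fam20c and Cd44 give the one marked negative value, -0.71.

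Several members also varied with the levels of cell type markers. Scores were formed as the mean of log2 levels over marker genes, each centred on its own mean, for osteoblast matrix (10 genes, among them Col1a1, Sparc and Ibsp), granulocytes (7 genes, among them S100a8 and Ngp), erythroid cells (10 genes) and osteoclasts (6 genes), and were compared with each member within groups. Of 28 relations 6 had an adjusted permutation p under 0.05, and 9 did after median-of-ratios rescaling. The share of all features that followed a score as closely is not given here. These counts therefore do not set the members apart from other transcripts. RPKM values of 1 library share a divisor, so abundant marrow transcripts and bone transcripts are not measured independently of each other.

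The granulocyte score was high where Pdpn was low (r = -0.79, permutation p = 4e-05, adjusted p = 0.00112, rho = -0.78), with r = -0.87 among control mice and -0.95 among HLU mice. It was likewise high where Dmp1 was low (r = -0.65, permutation p = 0.00201, adjusted p = 0.0188, rho = -0.69). Without the 2 mice farthest from the median score these were -0.75 and -0.55. The value for Cd44, a gene that granulocytes also carry, was positive (r = 0.59, permutation p = 0.0268, adjusted p = 0.0834) and did not pass.

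The osteoblast matrix score was high where Dmp1 was high (r = 0.79, permutation p = 0.0007, adjusted p = 0.0098, rho = 0.81), with 0.96 among control mice and 0.50 among HLU mice. Mepe (r = 0.69, permutation p = 0.0069), Pdpn (r = 0.69, permutation p = 0.00808) and Fam20c (r = 0.67, permutation p = 0.00785) followed it too, each with an adjusted p of 0.0377, and by rank the adjusted permutation p of Pdpn and Fam20c were 0.0729 and 0.0644. Without the 2 mice farthest from the median score the 4 values lay between 0.61 and 0.80. Phex came just short of the threshold (r = 0.64, permutation p = 0.0125, adjusted p = 0.0502) and passed after median-of-ratios rescaling (r = 0.63, adjusted permutation p = 0.0406). With the erythroid score no member passed before rescaling, where r was -0.49 for Phex and -0.52 for Pdpn. After it both passed, Phex at r = -0.65 (adjusted permutation p = 0.0306) and Pdpn at r = -0.63 (adjusted permutation p = 0.0334). Fgf23 followed none of the scores, with r between -0.41 and -0.19.

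**Figure D5:**
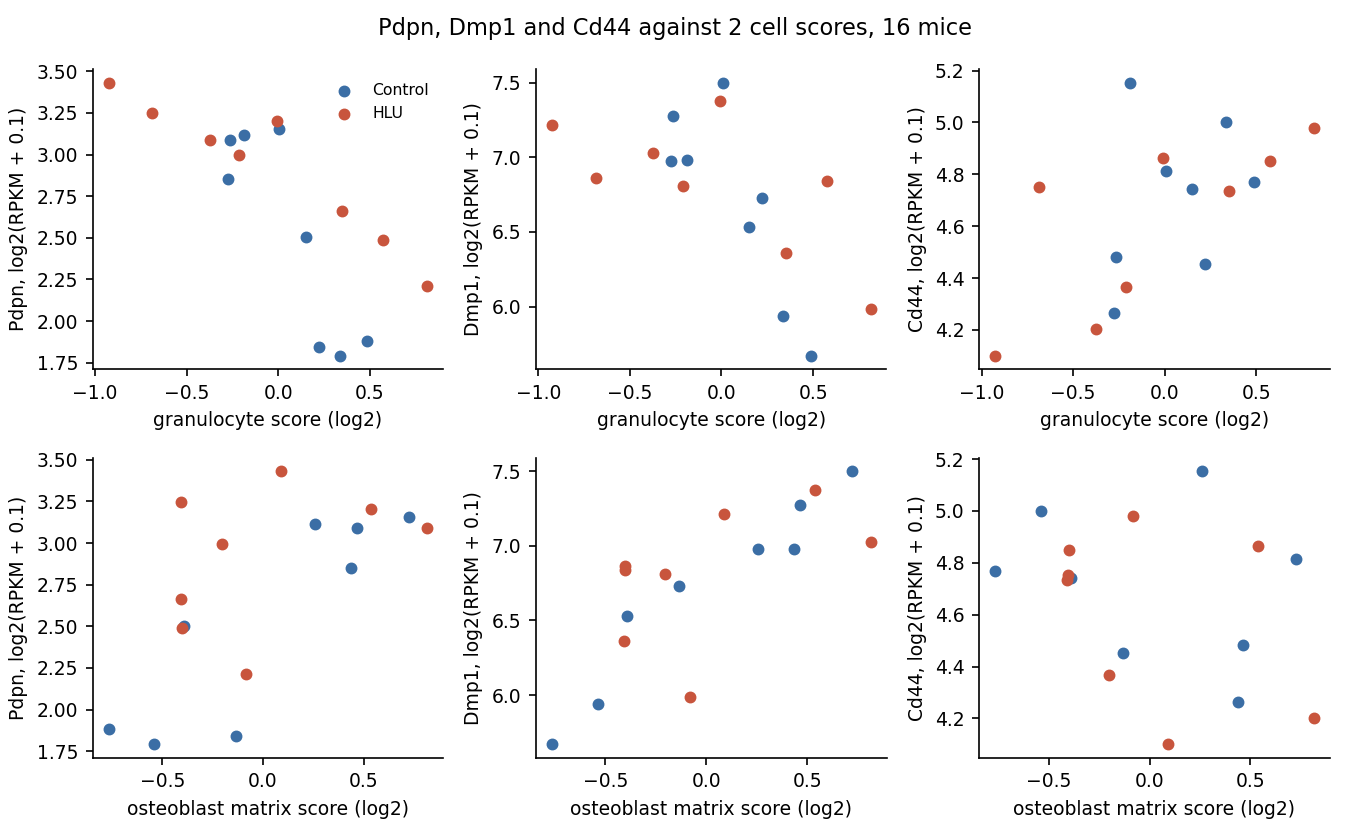
Log2(RPKM + 0.1) of Pdpn, Dmp1 and Cd44 in 16 mice against the granulocyte score (top) and the osteoblast matrix score (bottom), both in log2 units. Pdpn and Dmp1 fall along the granulocyte score in both groups. With the osteoblast matrix score Pdpn has r = 0.87 among control mice and 0.38 among HLU mice, and Dmp1 has 0.96 and 0.50. Cd44 has r = 0.59 with the granulocyte score and -0.32 with the osteoblast matrix score over all 16 mice.

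With the erythroid and granulocyte scores taken out of each gene within groups, 4 of the 7 pairs still had an adjusted permutation p under 0.05. These were Dmp1 with Phex (r = 0.85), with Pdpn (0.78) and with Mepe (0.70), and Phex with Pdpn (0.73). The 3 pairs of Fam20c were lost, at 0.38 with Dmp1, 0.49 with Mepe and -0.44 with Cd44. The osteoblast matrix score was not taken out, so its part in the remaining relations was not tested.

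Between the groups the erythroid score differed by -0.59 on the log2 scale, HLU minus control (exact permutation p = 0.0777), and the granulocyte score by -0.12 (exact permutation p = 0.628). The 10 erythroid genes tested were all lower in the mean of the HLU mice, and 3 of them, Hbb-b1, Hbb-b2 and Klf1, were called lower. Over all features 32.1% had a higher mean log2 value in HLU mice, and 4.76% were called lower. The osteoblast matrix score differed by -0.01 (exact permutation p = 0.960), with none of its 10 genes called. With erythroid and granulocyte scores in the fit the difference of Mepe was 1.07 and was called, in a fit that called 19.6% of all features.

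Other osteocyte genes gave no call, and 9 of the 10 tested had a higher mean log2 value in HLU mice, with a median difference of 0.17. For all features the share was 32.1% and the median difference -0.10. Sost differed by 0.59 (exact permutation p = 0.108), and Mef2c, a transcription factor upstream of Sost, by 0.33 (exact permutation p = 0.203). Dkk1, a further inhibitor of Wnt signaling, differed by 0.32 (exact permutation p = 0.301). Sgms2, which encodes a sphingomyelin synthase, was the 1 gene with a lower mean (-0.26, exact permutation p = 0.2999).

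The partners of FGF23 in phosphate handling gave 1 call among 9 genes tested, and it was lower. Of all features 5.87% were called, and 4.76% were called lower. Slc20a1, which encodes the sodium-phosphate transporter PiT-1, had 21.5 ± 4.32 RPKM in controls and 16.1 ± 4.96 RPKM after HLU, a log2 difference of -0.45 with a standard error of 0.19 (limma p = 0.0301, adjusted p = 0.744, exact permutation p = 0.0399). Its paralog Slc20a2 differed by 0.02 (exact permutation p = 0.918) and the phosphate exporter Xpr1 by 0.07 (exact permutation p = 0.595). The receptor gene Fgfr1 had 5.70 ± 2.67 and 6.67 ± 2.67 RPKM. Genes known from the kidney were nearly absent, as Kl, which encodes Klotho, reached at most 0.060 RPKM, and Slc34a1, Slc34a3, Cyp27b1 and Cyp24a1 had means below 0.5 RPKM, with Slc34a2 listed at 0 in every mouse. The median difference over the 9 genes was 0.02.

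Genes of the enzymes that modify or cut the secreted members gave no call among 10 tested, with a median log2 difference of -0.07. Galnt3, whose product glycosylates FGF23 and protects it from cleavage, had 4.32 ± 1.08 RPKM in controls and 3.57 ± 1.05 RPKM after HLU (exact permutation p = 0.168). Furin, which encodes a protease that cleaves FGF23, had 1.52 ± 0.575 and 1.40 ± 0.427 RPKM (exact permutation p = 0.711). Bmp1, whose product cuts DMP1 into its active fragments, had 17.1 ± 9.87 and 15.4 ± 7.45 RPKM (exact permutation p = 0.810).

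Among the partners of podoplanin and CD44, 1 of 10 genes tested was called, and it was lower, beside 4.76% of all features called lower. Itgb3, which encodes the integrin beta 3 chain of platelets and osteoclasts, had 98.9 ± 14.5 RPKM in controls and 73.8 ± 21.9 RPKM after HLU, a log2 difference of -0.46 with a standard error of 0.16 (limma p = 0.0121, adjusted p = 0.744, exact permutation p = 0.0171). The platelet genes Pf4 and Ppbp, part of a megakaryocyte list of 4 genes tested, were called lower too, with log2 differences of -0.76 and -0.69, and their part in the value of Itgb3 was not tested. Clec1b, which encodes the platelet receptor of podoplanin, differed by -0.43 (exact permutation p = 0.127). The linker genes Ezr, Msn and Rdx, whose products tie both glycoproteins to actin, differed by -0.17, -0.10 and 0.01, and none was called. Prox1, which defines the lymphatic vessels that also carry podoplanin, had at most 0.429 RPKM. Flt4 and Lyve1, listed with it as lymphatic endothelial genes, were more abundant. Flt4 averaged 2.55 RPKM in controls and 2.62 RPKM after HLU, and Lyve1 averaged 3.12 and 3.76 RPKM. The part of such vessels in the level of Pdpn was not tested.

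The features whose levels between mice were most like those of each member were looked up among 11096 features with a unique symbol and a mean of at least 2 RPKM, by r over the 16 mice after removal of group means. For Mepe, Sost was the second in this order (r = 0.89), between Tg (0.90) and Idua (0.89). For Phex the closest were Sema5a (0.95), Wisp1 (0.94) and Cadm1 (0.94), and for Dmp1 they were Epcam (0.94), Itga10 (0.93) and Cxcr7 (0.92). Pdpn was closest to Igdcc4, DQ267102 and Dtna, each at 0.94, and Fam20c to Pdgfrb, Dexi and Clstn1, each at 0.96. Cd44 was closest to A830080D01Rik (0.97), Stt3a (0.96) and Prps2 (0.96). None of these features was itself a member.

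Fgf23 was closest to Aimp1 (r = 0.89) and to the chaperone genes Dnaja4 (0.87) and Hsph1 (0.86). Control 6, the mouse with the highest Fgf23, had 22.8 RPKM of Hsph1, more than the 10.1 to 17.1 RPKM of the other control mice and the 6.83 to 12.6 RPKM of HLU mice. Its Dnaja4 of 29.0 RPKM was likewise the highest of the 16 mice. Without this mouse the values of r were 0.88 for Aimp1, 0.85 for Dnaja4 and 0.79 for Hsph1, which is a description only, as the 3 features had been picked with these mice.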

How the data were processed

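RNAseq libraries of cortical bone from 16 mice were prepared with the TruSeq v2 kit and sequenced 8 per lane on a HiSeq. The authors aligned reads with TopHat2 and deposited RPKM values for each mouse. The authors' processing notes in the labels also name DESeq2 and mm9, while the counting tool, annotation and gene lengths are not given in the sources used here. GENCODE M21 (GRCm38) and RefSeq (GRCm38.p6) served only for positions and promoters, which all 7 members had. Promoter windows follow the RefSeq start nearest the GENCODE start, which lies 4 bases inside the GENCODE gene for Dmp1, 26 for Phex and 567 for Fam20c. Protein sequences were not used here.

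Groups were taken from the sample titles. Every feature averaging 0.5 RPKM or more was tested on log2(RPKM + 0.1), which understates changes of low genes, with limma 3.58.1 in R 4.3.3 (2-sided, variance trend) and Benjamini-Hochberg adjustment over 16973 features. DESeq2, which the authors used, takes counts rather than RPKM. It was not run here, also not on the whole reads recovered from the RPKM values. Fold changes are on this scale. Exact permutation tests, all 2-sided, covered every split of 16 mice into 8 and 8, 40320 pairings of 8 mice or 256 sign flips. Python 3.11.15, numpy 2.4.6, pandas 2.3.3, scipy 1.17.1 and, for figures, matplotlib 3.10.9 were used. Whole reads were recovered for 100% of the features tested (within 0.01 of a read) and used with voom as an alternative. Limits given as reads cover counting error only, as reads are copies of fewer molecules.

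Members and gene lists were chosen with earlier results of these data known. Named genes are the members, listed genes, called genes of lists other than cell type markers with values, and the 3 features most like each member. The comparison and the permutation tests were tested on simulated data. Alternatives were other pseudocounts (1 and 0.01), other filters, rescaling, quantile normalization, a replicate block, no trend, marker scores as covariates, voom, and leaving out mice.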

Additional observations from a re-analysis of the deposited data

Results flagged for a closer look

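Fgf23 in Control 6 stood far from the other control mice, at 4.50 RPKM, with the next highest control mouse at 1.10 RPKM. The gap was 0.791 of the range of the 8 control mice, above Dixon's 95% critical value. Of 16 groups of 8 values examined, in RPKM or as ratios of RPKM, this was the 1 flagged. Chance alone flags about 5% of such groups, or 1 in 20, if the values are normally distributed.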

How the results depend on the processing

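Mepe remained higher in HLU mice under every alternative run, with log2 differences between 0.64 and 1.07. Without the 2 smallest libraries, Control 2 and HLU 5, an alternative chosen after seeing the data, Mepe was no longer called (0.68), Dmp1 was -0.12, Phex was -0.051 and 0 members were called. With erythroid and granulocyte scores as covariates Phex was -0.019, Fam20c was called at 0.69, and 2 members were called, in a fit that called 19.6% of all features against 5.87%. Quantile normalization put Cd44 at 0.036. With both scores taken out, 4 pairs of members covaried instead of 7. When each mouse was left out in turn, the differences ranged from -0.038 to 0.23 for Dmp1, from 0.64 to 0.95 for Mepe, from 0.09 to 0.42 for Phex, from 0.47 to 1.04 for Fgf23, from 0.28 to 0.49 for Pdpn, from 0.29 to 0.54 for Fam20c and from -0.17 to -0.03 for Cd44. Dmp1 was below 0 only without Control 2. Between 0 and 1 members were called, with 0 without Control 1 and with Fgf23 in place of Mepe without Control 6. Between 1 and 7 pairs covaried, with 1 without Control 3 or without HLU 2, 2 without Control 8 and 3 without Control 6, and Dmp1 with Pdpn was past the threshold each time (r between 0.82 and 0.92). Between 0 and 1 ratios passed, with the 1 found without HLU 4. The cause of these shifts was not tested.

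Replicate numbers did not pair the mice, since the correlation between same-numbered mice ranged from -0.17 to 0.51. With the replicate block the differences were 0.79 for Mepe, 0.69 for Fgf23, 0.40 for Fam20c, 0.39 for Pdpn, 0.25 for Phex, 0.11 for Dmp1 and -0.10 for Cd44, as without it, and 1 member was called, so the block changed no call. The ratio of Mepe to Dmp1 had an exact p of 0.0234 with the block, and 0 ratios passed adjustment.

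Over all features, 188 were called higher and 808 lower. Median-of-ratios rescaling gave 381 and 395, quantile normalization 460 and 364, voom 266 and 599, no filter 391 and 1048, the marker scores 1363 and 1961, leaving out each mouse in turn 117 to 363 and 471 to 1385, and leaving out Control 2 and HLU 5 together 108 and 863.

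Depth limits Fgf23 most, with 4 to 131 reads per library.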
